A study of Mus musculus with 6 samples.

Results

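The genes described here are Il18, which encodes the cytokine interleukin-18, and 7 genes of the inflammasome and its outputs, measured in mouse colonic epithelium: the sensors Nlrp6 and Nlrc4, the adaptor Pycard, the proteases Casp1 and Casp4, the pore-forming protein Gsdmd and the receptor antagonist Il1rn. They are 8 of 19938 genes that had a probe set of their own on the array. The genes were listed by name with earlier results of this comparison known, and the probe set of each was to be chosen by its mean over all 6 arrays. Each of the 8 turned out to have a single probe set, so no choice among probe sets was made. For these 8 genes the levels and differences are therefore a description, with no test of their own. Each of the 8 exceeded the minimum set for dim probe sets (called the floor, at log2 5.81, the 40th percentile of the probe-set means) and belonged to the 12071 genes compared.

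Inflammasomes are protein complexes in which a sensor of microbial or danger signals, often through the adaptor ASC (encoded by Pycard), activates caspase-1. Caspase-1 cuts the precursors of interleukin-18 and interleukin-1 beta into their active forms and cuts gasdermin D, whose fragment forms pores in the cell membrane. Colonic epithelial cells hold a ready store of the interleukin-18 precursor, and in mice epithelial interleukin-18 is known for its part in the defence of the mucosa and in the response to gut bacteria.

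The RNA came from EpCAM-positive, CD45-negative cells sorted from the colon of wild-type male BALB/c mice aged 6 weeks. All mice had fasted for 36 h and had food again for 24 h before the colon was taken. In 3 samples the mice were given no antibiotics (re-fed), and in the other 3 they received antibiotics during re-feeding (antibiotics). The labels do not name the antibiotics, give no number of mice per sample, and call the samples biological replicates, so p-values measure the spread between these samples. Mice that were neither fasted nor re-fed were not analysed here.

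The deposited medians ran from 5.63 to 6.17, and the values were brought to 1 scale by quantile normalisation. Antibiotics replicate 3 stood apart, with the lowest median and 10829 distinct values where each other array had at least 34568. Between 372 and 435 identical values were found in each pair among 4 arrays, re-fed 2 and 3 with antibiotics 1 and 2, more than in any pair with another array. With each of these 4 arrays, re-fed replicate 1 shared 154 to 198 values and antibiotics replicate 3 shared 42 to 67. An array with fewer distinct values has fewer to share, so the counts of antibiotics replicate 3 are not directly comparable with the others. Re-fed 2 and 3 with antibiotics 1 and 2 are called the common run. This grouping was inferred from the identical values alone, as no label names a run. Differences within these 4 arrays are given beside many of those over 6. The sorted cells carried the epithelial marker Epcam at 12.16 ± 0.11 without and 12.12 ± 0.065 with antibiotics (log2 expression, mean ± SD, n = 3 per group, as for every level below). Ptprc, the gene of CD45, lay below the floor (5.30 to 5.54 over the 6 arrays), as did 6 of 8 myeloid markers and 6 of the 7 markers of T cells and intraepithelial lymphocytes that had a probe set. The summed linear level was 503 to 621 for the myeloid list and 287 to 310 for the lymphocyte list without antibiotics, and 542 to 649 and 277 to 297 with them, and the groups overlapped in both.

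The 3 genes whose groups did not overlap were Il18, Casp1 and Casp4. Their promoters are shown because these genes lay lower together, as the 250 bases before the start in RefSeq, for Casp4 the first of 2 starts (build GRCm38.p6), 5′ to 3′, in lower case, with matches to the searched motifs in capitals.
Il18, chr9:50554450-50554699, plus strand: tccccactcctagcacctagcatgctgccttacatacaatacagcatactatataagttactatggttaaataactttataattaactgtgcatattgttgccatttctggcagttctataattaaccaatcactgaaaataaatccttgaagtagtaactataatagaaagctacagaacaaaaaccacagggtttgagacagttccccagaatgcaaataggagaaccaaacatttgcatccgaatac
Casp1, chr9:5298267-5298516, plus strand: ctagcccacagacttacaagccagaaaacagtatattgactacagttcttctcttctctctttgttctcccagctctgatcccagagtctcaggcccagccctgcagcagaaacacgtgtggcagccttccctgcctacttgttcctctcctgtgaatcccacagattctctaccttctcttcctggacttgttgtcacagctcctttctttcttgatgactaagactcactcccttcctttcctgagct
Casp4, chr9:5308599-5308848, plus strand: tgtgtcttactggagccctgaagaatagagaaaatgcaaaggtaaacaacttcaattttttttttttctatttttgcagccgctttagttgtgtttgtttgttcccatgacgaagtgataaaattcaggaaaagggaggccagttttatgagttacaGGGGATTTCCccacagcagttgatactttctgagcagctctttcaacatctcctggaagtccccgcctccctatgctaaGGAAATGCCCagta
The motifs were chosen with these promoters already seen and were searched on both strands: GAS (TTCNNNGAA) and the ISRE core (GAAA, then NN, then GAAA), both known from interferon signalling, AP-1 (TGANTCA) and NF-kB (GGG, then NN, then TTTCC). The Casp4 window held 2 matches to the NF-kB letters, which begin 93 and 14 bases before the start, and the windows of Il18 and Casp1 held 0 matches to any of the 4. Of 27025 promoter windows of this length, 1.4% held the NF-kB letters, 7.18% GAS, 3.04% the ISRE core and 6.87% AP-1. Among the other members with a promoter in the table, Nlrp6 and Il1rn each held 1 match to AP-1, and Nlrc4 and Pycard held 0 matches. A match is a stretch of letters and was not examined as a binding site.

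Il18 lay lower with antibiotics. Replicates 1 to 3 read 9.79, 9.95 and 9.59 without antibiotics, against 9.17, 9.08 and 9.14 with them, and every gene below is given in this order. After quantile normalisation the 3 arrays with antibiotics stood close together, within a range of 0.088. All lay below the lowest re-fed array by at least 0.42. The mean was 9.78 ± 0.18 without and 9.13 ± 0.046 with antibiotics, a 1.56-fold lower level (log2 difference antibiotics minus re-fed, -0.65, SE 0.12; -0.65, SE 0.14 in the common run). With the deposited scaling the antibiotics arrays were less close, at 9.26, 9.20 and 8.62. They still lay below the re-fed arrays, at 9.63, 10.19 and 9.77. In a bulk sample, fewer cells that express a gene and less RNA per cell cannot be told apart.

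Casp1 encodes caspase-1, the protease that matures interleukin-18. It was at 9.52, 9.49 and 9.77 in the re-fed arrays and at 8.99, 9.04 and 9.36 in the antibiotics arrays. After quantile normalisation, antibiotics replicate 3 stood 0.13 below the lowest re-fed array and well above the other antibiotics arrays. The gap between the groups was therefore narrower than the range within either. The difference was -0.46 (SE 0.13), a 1.38-fold lower level, and -0.62 (SE 0.12) in the common run, where antibiotics replicate 3 is left out. With the deposited scaling, antibiotics replicate 3 was instead the lowest array at 8.84, against 9.10 and 9.17 for the other antibiotics arrays.

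Casp4 encodes the mouse protease also known as caspase-11, which senses bacterial lipopolysaccharide inside the cell and cuts gasdermin D. Its level was 8.92, 9.42 and 9.40 without antibiotics and 8.73, 8.83 and 8.56 with them. Re-fed replicate 1 lay apart from the other re-fed arrays and only 0.095 above the highest antibiotics array. The mean was 9.25 ± 0.28 without and 8.71 ± 0.14 with antibiotics, a difference of -0.54 (SE 0.15) or 1.45-fold, and was -0.63 (SE 0.10) in the common run. With the deposited scaling, re-fed replicate 1 (8.77) lay below antibiotics replicates 1 and 2 (8.83 and 8.94), so the Casp4 groups overlapped there, while those of Il18 and Casp1 did not. Casp1 and Casp4 are paralogs that lie next to each other on chromosome 9 with 0 protein-coding genes between them in RefSeq. Whether a probe of either also binds the other's RNA was not examined.

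**Figure D1:**
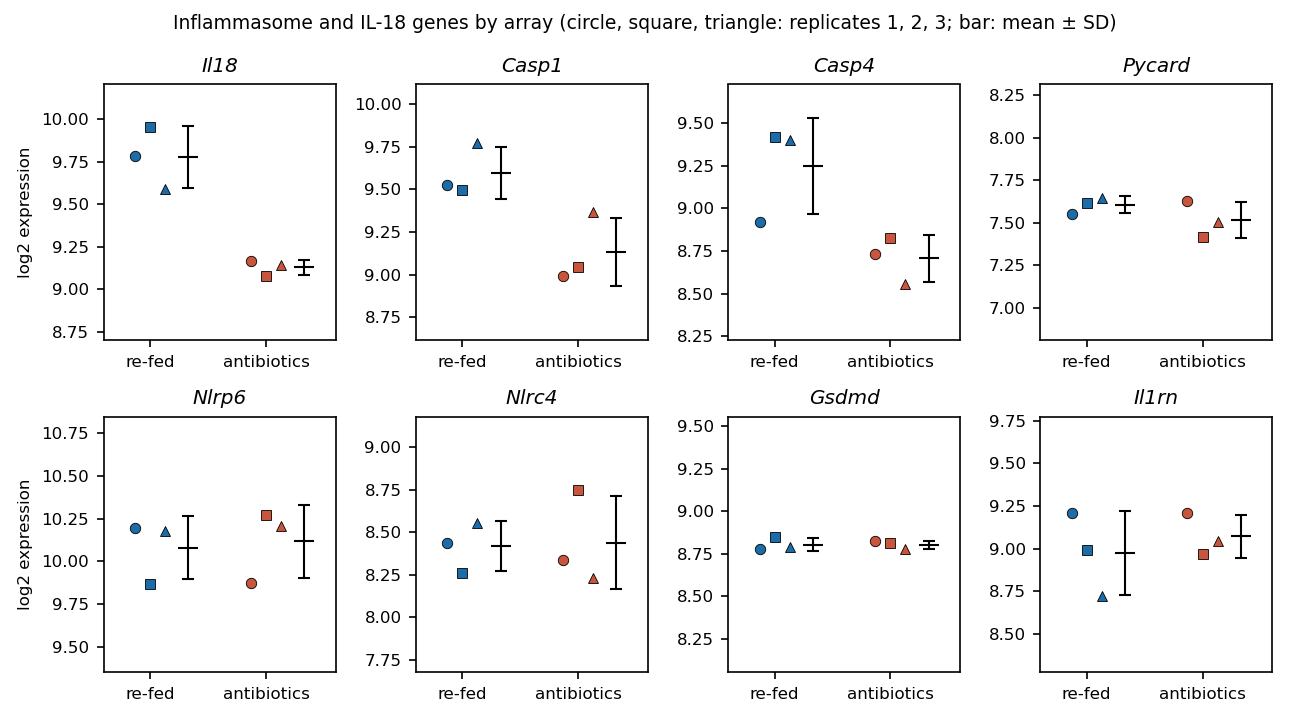
Log2 expression after quantile normalisation (vertical axis, every panel spanning the same range of 1.5 log2 units) of the 8 genes on each array, with re-fed arrays in blue and antibiotics arrays in red; the symbol gives the replicate number and the bar the mean ± SD of 3 arrays. The antibiotics arrays of Il18, Casp1 and Casp4 lie below all their re-fed arrays, and the groups of the other 5 genes overlap.

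The sensors did not follow this pattern. Nlrp6, a sensor of the intestinal epithelium, stood at 10.19, 9.87 and 10.18 without and at 9.87, 10.27 and 10.21 with antibiotics. Each group held 2 high arrays and 1 low one, and the difference was 0.038 (SE 0.14). Nlrc4, which with NAIP proteins detects bacterial flagellin and type III secretion proteins, was at 8.44, 8.26 and 8.55 and at 8.34, 8.75 and 8.23. Its highest and its lowest array were both antibiotics arrays, and the difference was 0.020 (SE 0.15).

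Pycard, the adaptor that joins sensors to caspase-1, was at 7.55, 7.62 and 7.65 in the re-fed arrays and at 7.63, 7.41 and 7.50 in the antibiotics arrays, a difference of -0.091 (SE 0.10) with overlapping groups. Gsdmd, the target of both caspases, varied least of the 8 genes. Its arrays read 8.78, 8.85 and 8.79 without and 8.82, 8.81 and 8.78 with antibiotics, and the difference was -0.00074 (SE 0.094). Il1rn encodes the secreted antagonist of the interleukin-1 receptor and stood at 9.21, 8.99 and 8.72 against 9.21, 8.97 and 9.04. Both groups reached the same highest level, and the difference was 0.098 (SE 0.14; 0.23, SE 0.14 in the common run).

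**Figure D2:**
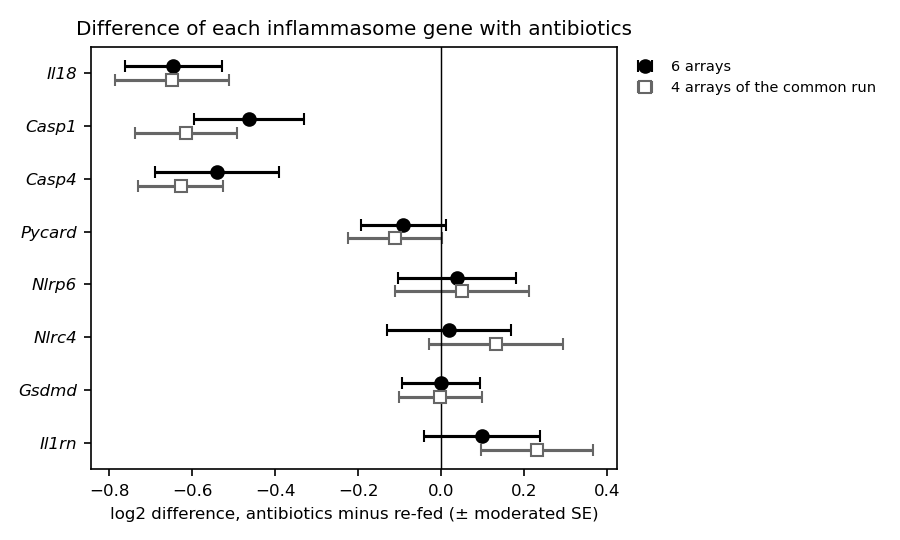
Log2 difference, antibiotics minus re-fed, with its moderated standard error (horizontal axis) for each of the 8 genes, over 6 arrays (filled circles) and over the 4 arrays of the common run (open squares). Il18, Casp1 and Casp4 lie between -0.65 and -0.46 in both fits, and the other 5 genes lie between -0.11 and 0.23.

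Over all genes, limma called 7 of 12071 (0.058%) at a threshold of 0.05 on the Benjamini-Hochberg adjusted p, 6 of them lower with antibiotics (0.0497%), and 0 of these 8 genes were among them; at an unadjusted p under 0.05 there were 3, Il18, Casp1 and Casp4, beside 12.6% of all genes. Within the common run 0.447% of genes and 0 of the 8 were called, again with 3 at an unadjusted p under 0.05, beside 17.4% of all genes. Groups without overlap and lower with antibiotics were found for 3 of the 8 genes and for 10.7% of all genes. Nothing is read from this comparison or from those of unadjusted p, because the genes were listed with this contrast known. The median difference was -0.046 over the 8 genes and 0.0033 over all genes tested. Il18 was called in 4 of the 17 alternative settings, Casp4 in 2 and Casp1 in 1. In the settings with such a call, 43 to 1169 genes were called over the whole array, against 7 in the main fit. The only call of Casp1 came with array weights, where 1169 genes were called. All 3 differences were below 0 in each of the 17 settings, which reuse the same arrays. With the deposited scaling the median of all genes moved to -0.12, and relative to it Il18, Casp1 and Casp4 differed by -0.72, -0.54 and -0.61.

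Other genes of the pathway were taken from lists written from general knowledge. Of 69 genes, 57 had a probe set of their own and 40 lay above the floor. Of these 40, limma's test called 0 over all genes, and 9 had an unadjusted p under 0.05, as had 12.6% of all genes tested. The median difference was -0.020, with 22 genes below 0 and 18 above. In 5 of the 40 the groups did not overlap with antibiotics lower, against 10.7% of all genes. In 4 they did not overlap with antibiotics higher, against 8.88% of all genes.

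The soluble inhibitor of interleukin-18 lay on the other side of 0 from Il18 itself. Il18bp, which encodes the interleukin-18 binding protein that keeps the cytokine from its receptor, was at 7.40, 7.58 and 7.55 without and at 7.71, 7.92 and 7.79 with antibiotics. Every antibiotics array lay above every re-fed array, with a difference of 0.30 (SE 0.11, limma adjusted p = 0.31; 0.25 in the common run, adjusted p = 0.30). It was the 1 gene tested of its list of ligands and inhibitors. The other 6 ligands with a probe set, among them Il1b (4.91 to 5.27) and Il33 (4.57 to 5.30), lay below the floor.

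Of 11 sensors and partners tested, 6 lay above and 5 below 0, with a median of 0.0035 (-0.057 to 0.060 leaving out 1 array). The highest differences were those of Naip6 and Naip5, which encode receptors that bind bacterial flagellin and hand it to NLRC4. Naip6 stood at 9.01, 9.18 and 9.34 without and at 9.38, 9.89 and 9.91 with antibiotics (0.55, SE 0.16, limma adjusted p = 0.239). Naip5 stood at 8.78, 9.01 and 9.15 against 9.21, 9.39 and 9.81 (0.49, SE 0.16, limma adjusted p = 0.289). In both the groups lay apart by a small step, and the difference was smaller in the common run, 0.37 for Naip6 and 0.22 for Naip5. Binding of either RNA to the other's probes was not examined for this paralog pair. Naip2, whose protein recognises the rod of the type III secretion system, differed by 0.10 (SE 0.13; 0.034 in the common run). Nlrp3, a sensor best known from myeloid cells, lay below the floor (4.47 to 4.73).

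Among 8 other genes of cell death, 4 lay above and 4 below 0, with a median of 0.0096 (-0.034 to 0.11 leaving out 1 array). Gsdmc4, a gasdermin of the C group, was at 8.47, 8.35 and 8.08 without and at 7.80, 7.70 and 7.86 with antibiotics. All antibiotics arrays lay below all re-fed arrays, and the difference was -0.52 (SE 0.12, limma adjusted p = 0.17; -0.47 in the common run, adjusted p = 0.135). Its paralog Gsdmc2 differed by -0.077 (SE 0.26; 0.020 in the common run), and 2 further probe sets name more than 1 gene of this group and were not used. Casp8, an initiator caspase of cell death that can also process interleukin-1 family cytokines, was at 11.22, 11.21 and 11.40 against 10.95, 11.05 and 11.03 (-0.27, SE 0.10, limma adjusted p = 0.341; -0.31 in the common run).

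Receptors and signalling genes showed 4 of 8 above and 4 below 0, with a median of 0.069. Il1rap, the accessory chain shared by the receptors of interleukin-1, interleukin-33 and interleukin-36, was at 6.86, 6.70 and 6.88 without and at 6.32, 6.40 and 6.46 with antibiotics. Its groups lay apart, with a difference of -0.42 (SE 0.10, limma adjusted p = 0.178; -0.43 in the common run). Sigirr, an inhibitory receptor of this family, was at 8.26, 8.13 and 8.49 against 8.81, 8.70 and 8.35, with overlapping groups (0.33, SE 0.15, limma adjusted p = 0.402; 0.44 in the common run). The 2 chains of the interleukin-18 receptor, Il18r1 and Il18rap, lay below the floor.

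**Figure D3:**
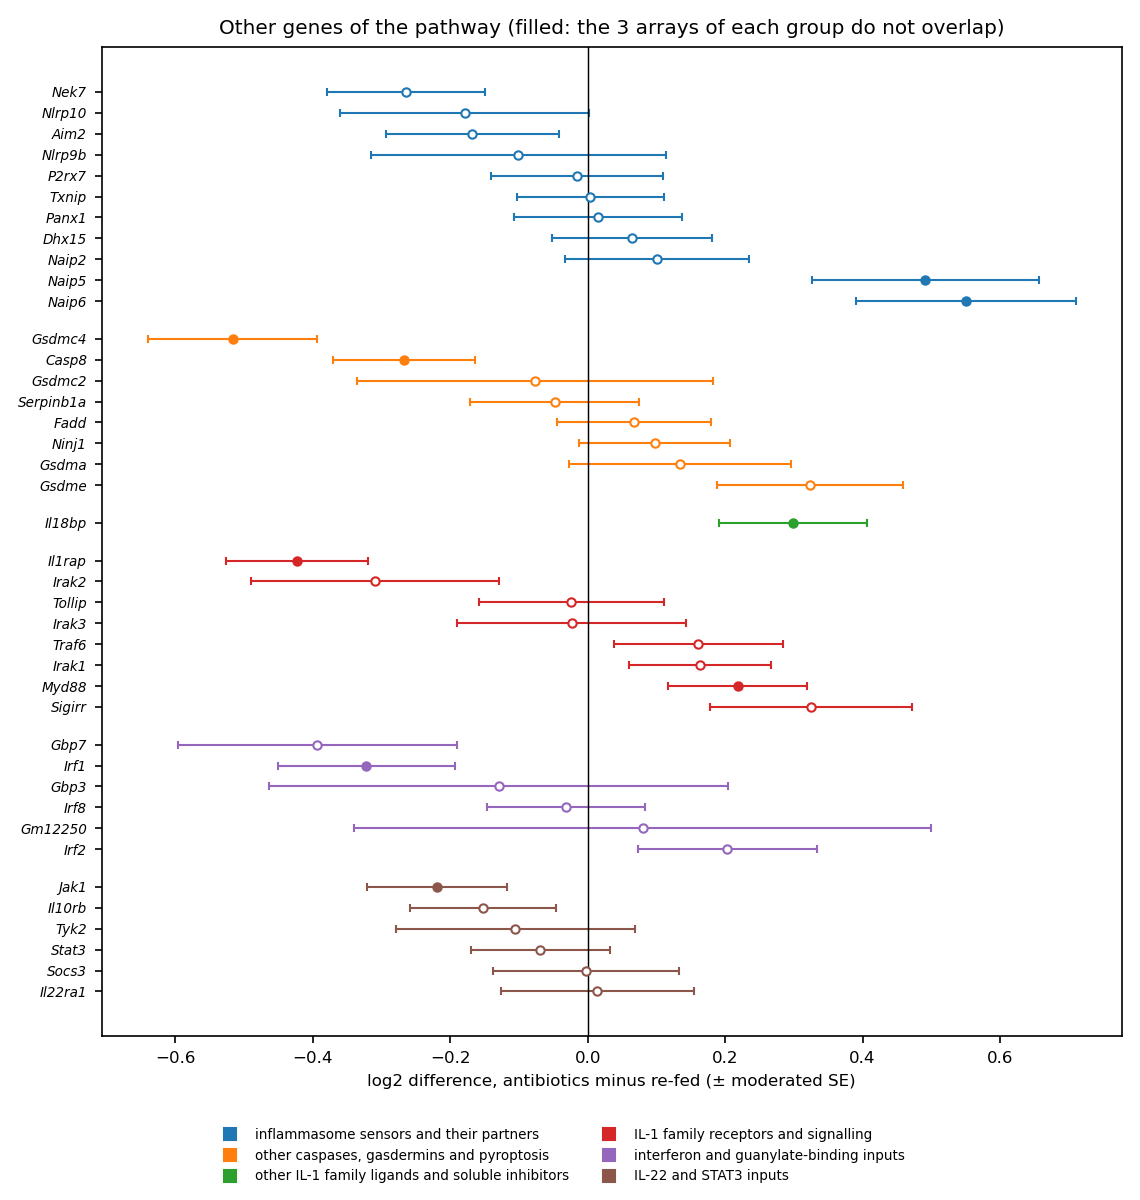
Log2 difference, antibiotics minus re-fed, with its moderated standard error (horizontal axis) for the 40 other pathway genes tested, coloured by list; filled points mark genes whose 3 antibiotics arrays do not overlap their 3 re-fed arrays. The genes spread from -0.52 (Gsdmc4) to 0.55 (Naip6), and no list lies wholly on 1 side of 0 apart from the list with Il18bp as its 1 gene.

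Of the interferon inputs, Irf1, a transcription factor induced by interferon, was at 10.71, 10.88 and 10.80 without and at 10.26, 10.69 and 10.48 with antibiotics (-0.32, SE 0.13, limma adjusted p = 0.353; -0.37 in the common run). Gbp7, a guanylate-binding protein, was at 7.56, 7.75 and 7.72 against 6.80, 7.32 and 7.73 (-0.39, SE 0.20, limma adjusted p = 0.457; -0.67 in the common run, adjusted p = 0.121). After quantile normalisation, antibiotics replicate 3 was the highest array of its group for Gbp7, as it was for Casp1. With the deposited scaling it was the lowest of its group for Casp1. The same array was the highest of all 6 for Gbp3 (7.45, the others 5.83 to 6.75) and for Gm12250, the gene of the immunity-related GTPase IRGB10 (7.47, the others 5.59 to 6.47), both named after their values were seen. Casp4 was at its lowest on that array. The median of the 6 genes tested was -0.081 over 6 arrays, -0.42 without antibiotics replicate 3 alone, -0.039 without re-fed replicate 1 alone and -0.37 in the common run. It was 0.11 without antibiotics replicate 1 and 0.010 without antibiotics replicate 2, and the part of these inputs in the levels of Casp1 and Casp4 was not tested. Interleukin-22 is a cytokine known to induce Il18 in the epithelium. Of 7 genes listed for its signalling, Il22ra2 lay below the floor (4.42 to 5.08). Of the 6 tested, 5 lay below 0 (Socs3 at only -0.0026) and 1 above, with a median of -0.087. Without antibiotics replicate 3 they lay 3 to each side, with a median of -0.015, and in the common run likewise, with a median of 0.0061. Jak1, a kinase of this signal, was at 10.18, 10.06 and 10.19 against 9.88, 10.02 and 9.87 (-0.22, SE 0.10, limma adjusted p = 0.417; -0.17 in the common run). The receptor chain Il10rb differed by -0.15 (SE 0.11, limma adjusted p = 0.581; -0.17 in the common run) and the ligand-binding chain Il22ra1 by 0.014 (SE 0.14; 0.079 in the common run).

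Markers of the cells that carry these genes were read beside them. Of 8 pan-epithelial genes 0 were called, 7 lay below 0 and 1 above, and their summed linear level was 47392 to 48841 without and 43917 to 46469 with antibiotics, without overlap. The keratin gene Krt18 had the most negative difference of them, at 12.15 ± 0.042 and 11.56 ± 0.021 (-0.59, SE 0.094, limma adjusted p = 0.0692). Krt19 (-0.15) and Krt8 (-0.069) lay lower without overlap too, as did 10.7% of all genes. The groups of Vil1 (-0.17), Epcam (-0.036), Cdh1 (-0.034), Cldn7 (-0.026) and Cldn3 (0.081) overlapped. The sum and the mean of the 8 genes include Krt18, and neither was taken without it. Taken relative to that mean on each array, Il18 differed by -0.52, Casp1 by -0.34 and Casp4 by -0.42. In that setting the median of all genes tested also moved up, to 0.13 from 0.0033 in the main fit. Of 8 markers of mature colonocytes 0 were called, 5 lay below 0 and 3 above. Slc9a3 (-0.63), Krt20 (-0.46) and Aqp8 (-0.29) lay lower without overlap, beside 10.7% of all genes. The groups of Car4 (0.040), Muc3 (0.033), Slc26a3 (0.016), Ceacam1 (-0.0074) and Guca2a (-0.065) overlapped. The list's median was -0.036 (0.018 without antibiotics replicate 3) and its summed level 64893 to 69729 against 59678 to 67158. Goblet cell markers had a median of -0.16 (-0.28 in the common run, -0.071 without antibiotics replicate 2) over 6 genes, all below 0 and 0 called. Spink4 (-0.59) and Tff3 (-0.20) lay lower without overlap, beside 10.7% of all genes. Muc2, the main mucin, differed by -0.086, with overlapping groups. The summed level of the list was 47189 to 53793 against 42663 to 48796. Among markers of the crypt base and of cycling cells, Lgr5, Ascl2 and Olfm4 lay below the floor. Smoc2 (0.31) lay higher without overlap, as did 8.88% of all genes. The summed level of all 8 was 1462 to 1708 against 1649 to 2430. The 5 tested had a median of 0.27, with 4 above 0, 1 below and 0 called. Without antibiotics replicate 3 that median was 0.12, and it was 0.18 without re-fed replicate 3 and 0.11 in the common run. Mki67, a marker of cycling cells, was at 8.84 on antibiotics replicate 3 and between 7.56 and 8.10 on the other arrays. The part of cell composition in the levels of Il18, Casp1 and Casp4 was not tested.

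The genes with the profile closest to that of Il18 were found by the root-mean-square distance between log2 profiles, each centred on its own mean over the 6 arrays. They were Bcorl1, a transcriptional corepressor (distance 0.060), Lbp, which encodes the lipopolysaccharide-binding protein (0.085), Gsdmc4 (0.11), Rapgefl1 (0.11) and Epb41l2, a protein of the membrane skeleton (0.12). Lbp stood at 6.59, 6.89 and 6.66 without and at 6.16, 5.99 and 6.15 with antibiotics. Bcorl1 stood at 7.78, 7.79 and 7.52 against 7.09, 7.08 and 7.16. In both, as in Il18, the antibiotics arrays lay close together after quantile normalisation and below all re-fed arrays. Among the other genes tested, Casp4 was the 413th closest to Il18 (0.22) and Casp1 the 602nd (0.24), while Pycard was the 2393rd and Nlrp6 the 8787th. The 6 points of a profile share the arrays and the treatment, so the distance describes likeness alone. Profiles were not scaled, so the ranks also depend on the size of each gene's difference.

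**Figure D4:**
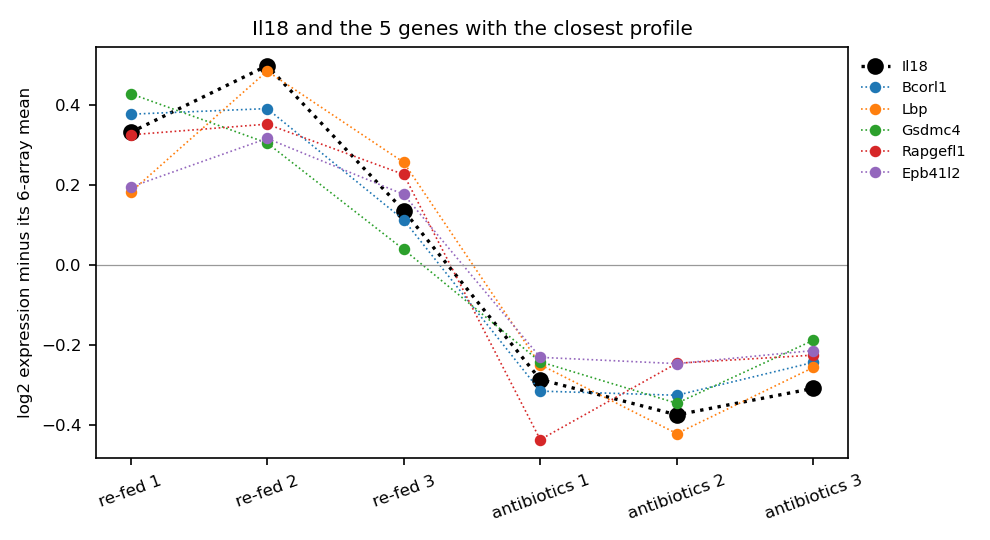
Log2 expression minus the gene's own 6-array mean (vertical axis) on each array (horizontal axis) for Il18 (black) and the 5 genes with the closest profile; dotted lines only join the points of a gene, and replicates have no order. All 6 genes lie above their mean on each re-fed array and below it on each antibiotics array.

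Genes next to Il18 on chromosome 9 were read as well, 3 on either side in the order of RefSeq. Of the 5 that were tested 0 were called. Sdhd and Timm8b, genes of mitochondrial proteins that follow Il18, differed by 0.010 (SE 0.12) and -0.026 (SE 0.10). On the other side Bco2, a carotenoid-cleaving enzyme, and Pts, an enzyme of tetrahydrobiopterin synthesis, differed by -0.20 (SE 0.12) and -0.12 (SE 0.14). Plet1, a membrane protein of epithelial progenitors, varied widely at 7.76, 8.91 and 9.45 without and 8.30, 7.96 and 7.67 with antibiotics (-0.73, SE 0.36, limma adjusted p = 0.442; -1.05 in the common run, adjusted p = 0.0711). Beside Casp1 and Casp4, 5 of 6 neighbours lay below the floor, and Msantd4 differed by -0.26 (SE 0.12, limma adjusted p = 0.404; -0.41 in the common run, adjusted p = 0.118).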

How the data were processed

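RNA of sorted colonic epithelial cells was labelled from 6 µg of total RNA and hybridised to Affymetrix arrays, 1 per sample, per the labels' protocols. The authors deposited log2 values for 35557 probe sets, made with RMA per the submitters' processing notes. The sources used here give no version, annotation or build. Of the probe sets, 21789 named 1 gene in the platform table, 1621 several and 12147 were unnamed here; 21698 matched RefSeq by Entrez identifier and 0 symbols changed. Values of the 23410 probe sets with a gene were quantile-normalised, because array medians differ. Each gene was represented by its probe set with the highest mean, and 12071 genes above the floor were fitted with limma 3.58.1 in R 4.3.3 (lmFit, eBayes, two-sided, Benjamini-Hochberg over these genes). The number of arrays limits the precision. The procedure was tested on simulated data. The grouping into a common run was inferred from identical values, and each other array was taken to stand alone. Genes, lists and tests were chosen with earlier results of these data known. Named genes were the 8 genes, per pathway list the 2 with the smallest unadjusted p where 0 passed, the defining markers and the 5 profiles closest to Il18; others are named for position or as said. List genes without a probe set of their own were not analysed here. Sequences are from RefSeq (GRCm38.p6), which held promoters for 7 of the 8 genes. Alternatives covered scaling, filter, arrays left out, replicate block, array weights, trend and probe-set choice.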

Additional observations from a re-analysis of the deposited data

How the results depend on the processing

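The differences of Il18, Casp1 and Casp4 stayed below 0 in all 17 alternatives: from -0.84 to -0.52 for Il18 (-0.74 to -0.56 leaving out 1 array), from -0.72 to -0.34 for Casp1 and from -0.74 to -0.42 for Casp4. Il18 passed the threshold over all genes with arrays centred on the median (-0.80), the stricter filter (-0.65), array weights (-0.65) and an intensity trend (-0.65), each time as the 1 gene of the 8, apart from array weights with 3 of the 8 and 7 other pathway genes. With deposited values in the common run 1 of the 8 passed, Casp4. The genes called over the whole array, 7 as reported and 7 with the replicate block, were 45 with the deposited values, 62 with median centring, 2 without a filter, 43 with the stricter filter, 54 in the common run, 1169 with array weights, 43 with a trend, 4 relative to the pan-epithelial genes and 75 with deposited values in the common run, the last 2 settings added after seeing the data. Leaving out 1 array gave 0 (without antibiotics replicate 1, with 1040 genes at an unadjusted p under 0.05 in limma) to 11. Differences near 0 changed sign: Nlrp6 (-0.15), Nlrc4 (-0.16) and Il1rn (-0.099) with deposited values; the same genes at -0.12, -0.13 and -0.061 with median centring; Nlrp6 with array weights (-0.064), with deposited values in the common run (-0.041) and leaving out 1 array (-0.068 to 0.16); Nlrc4 (-0.13 to 0.12), Gsdmd (-0.015 to 0.021) and Il1rn (-0.029 to 0.22) leaving out 1 array; and Pycard (0.032) and Gsdmd (0.12) relative to the pan-epithelial genes. The cause of these shifts was not tested. In the labels, same-numbered samples share only a number. Their deviations correlated at 0.021, -0.034 and -0.23, and those of differently numbered samples at -0.175 to 0.245. With so few arrays, centred within each group, these values cannot show whether samples were paired. With the replicate block 0 of the 8 and 0 of the other pathway genes were called. The median of all genes was -0.12 with deposited values and 0.13 relative to the pan-epithelial genes.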
